A study of Sus scrofa with 8 samples.

Results

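Gluconeogenesis and hepatic glucose control were examined through a short list of genes in pig liver: PC, PCK1, PCK2, FBP1, G6PC, TAT, PPARGC1A, FOXO1 and INSR. Members were taken by symbol, with earlier results of these data known. Of these 9 genes, 7 had an identifier in the deposited mRNA table, which held 21607 identifiers, 11654 of them with a symbol. FBP1 and G6PC had no identifier in that table and were not analysed here. The samples were 4 livers of healthy female Yanan pigs: 2 from young sows (180 days of age) and 2 from old sows (8 years of age), each giving 1 library. They are called young 1, young 2, old 1 and old 2 below, and a number shared by a young and an old sow does not mean that the animals were related. No animal had received an agent or carried an engineered allele. All were kept from food during the night before slaughter. The young sows had not given birth and the old ones had been culled after years of breeding, so that age and breeding history cannot be told apart.

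Gluconeogenesis makes glucose from lactate, glycerol and amino acids, and in fasting the liver carries most of it. Pyruvate carboxylase (PC) turns pyruvate into oxaloacetate, and phosphoenolpyruvate carboxykinase turns oxaloacetate into phosphoenolpyruvate, in the cytosol (PCK1) or in the mitochondrion (PCK2). FBP1 and G6PC act at the last steps, before glucose leaves the cell. Glucagon and glucocorticoids raise the transcription of PCK1 and of TAT, the tyrosine aminotransferase, through factors that include FOXO1 and its coactivator PPARGC1A. Insulin, acting through its receptor INSR, drives FOXO1 out of the nucleus and lowers the same genes.

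The libraries held 37555696 and 37125093 reads on the listed mRNAs in the young and 22482241 and 24866406 in the old. Levels are given in CPM, the reads of a gene scaled to a common library size and not divided by gene length, so that levels of different genes are not compared. TMM scaling, used as an alternative, multiplied the values by 0.91 in young 1, 0.95 in young 2 and 1.07 in old 1 and old 2. These multipliers also hold a change of library size, from all reads implied to the reads on the listed mRNAs. The TMM factors themselves were 1.035, 0.943, 0.985 and 1.040 in young 1, young 2, old 1 and old 2, and overlapped between the ages. Genes lower in the old in CPM are therefore less so after this rescaling, called TMM scaling below. More mRNAs were above 0 in the old libraries (17262 and 16978) than in the young (15230 and 14291), although the old libraries were shallower. Old 1 stood apart from the other libraries: the 25 interferon-stimulated genes measured summed to 2451 CPM in it, against 118, 133 and 93.2 CPM in young 1, young 2 and old 2, and each of the 25 was above both young values there. The members' fold changes that turned without old 1 are given with and without it. All 12 hepatocyte markers measured were present in every library, and ALB, the gene of serum albumin, stood at 29468, 35205, 16534 and 23978 CPM in young 1, young 2, old 1 and old 2. Pancreas markers summed to at most 0.439 CPM and skeletal muscle markers to at most 2.37 CPM in any library, with the glucagon gene GCG listed at 0 in all 4.

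With 2 animals per age, no difference between the ages could be established for any of the 7 genes. The old mean of log2(CPM + 1) was lower than the young mean in 6 genes and higher in 1 (FOXO1), and the median log2 fold change of the 7 was -0.41, against -0.023 over all 16898 mRNAs tested. PC was the only member whose old values were both below both young values, and no member was above them in both. That is 1 of 7 members lower without overlap, where 25% of all mRNAs were lower and 24.4% higher in this sense. Old 1 was below both young libraries in 6 of the 7 genes, while old 2 was below both in 1 and above both in 1. Over all mRNAs, 35.4% were below and 35.5% above both young libraries in old 1, and 35.5% below and 34.7% above in old 2. Without old 1 the median of the 7 was 0.083, and without old 2 it was -0.66.

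In the limma fit across all mRNAs, with Benjamini-Hochberg adjustment, a call needed an adjusted p under 0.05 and an absolute log2 fold change above 1. No mRNA met both, so 0% of all mRNAs and 0 of 7 members were called, and the smallest adjusted p of any mRNA was 0.213. At an unadjusted limma p under 0.05, 8.93% of all mRNAs were lower and 6.78% higher in the old, and 0 of 7 members were in either set. Of the mRNAs at that p, 56.9% were lower in the old, against 39.0% after TMM scaling, 21.0% in edgeR's quasi-likelihood test, 20.8% in its exact test and 30.9% in DESeq2. Members were called in none of these tests, although edgeR's exact test on the recovered reads called 534 mRNAs and DESeq2 called 880.

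**Figure D1:**
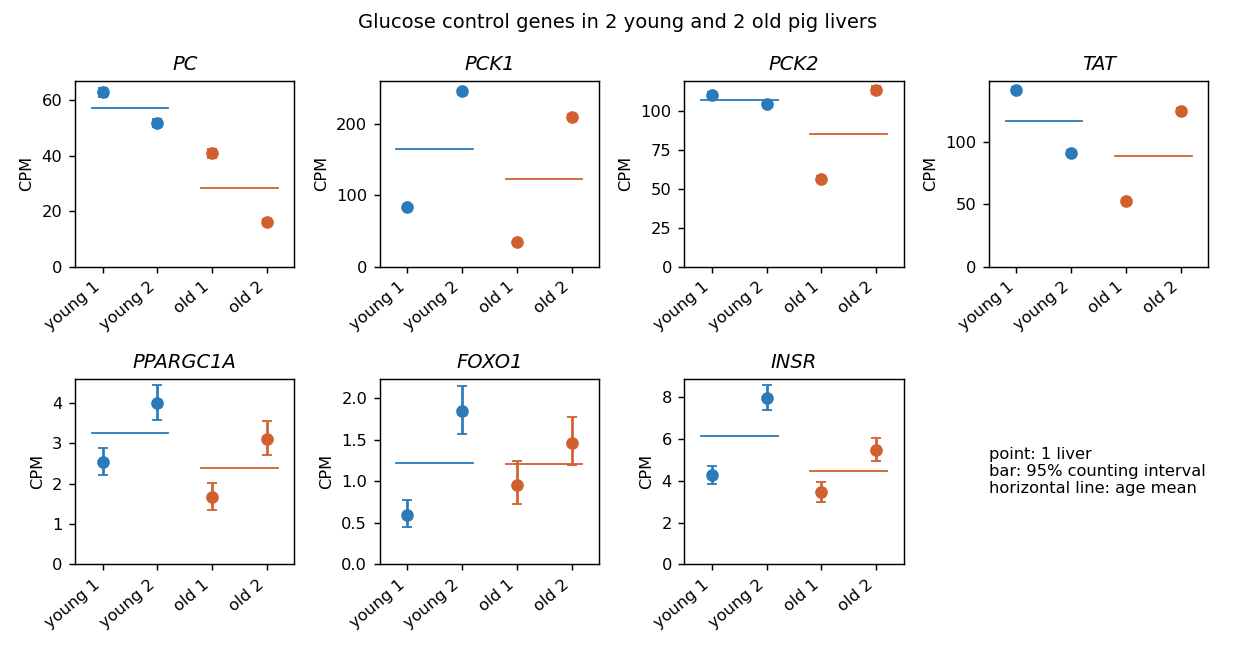
Level in CPM (vertical axes, from 0) of the 7 measured genes in young 1, young 2, old 1 and old 2; points are single livers, bars are 95% counting intervals and horizontal lines are age means. Both old points lie below both young points for PC, while the ages overlap for the other 6 genes, and old 1 is lowest for PCK1, PCK2, TAT, PPARGC1A and INSR.

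PC (ENSSSCG00000012926), which opens the path from pyruvate, stood at 62.7 CPM in young 1, 51.6 in young 2, 40.8 in old 1 and 16.2 in old 2. Both old livers were lower than both young ones, and the lowest value came from old 2, not from old 1. The log2 fold change was -1.11 (SE 0.52, 95% interval -2.71 to 0.48, adjusted p = 0.434 in limma). It was -1.75 without old 1 and -0.47 without old 2. The read number behind the lowest value was 1162, with a counting interval of 15.3 to 17.1 CPM, so counting error was small beside the difference between the old sows.

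PCK1 (ENSSSCG00000007507), the cytosolic enzyme of the next step, stood at 83.9 CPM in young 1, 245.5 in young 2, 34.6 in old 1 and 209.5 in old 2. Each age had 1 high and 1 low liver, with a 2.93-fold gap between the young sows and a 6.05-fold gap between the old. The spread within ages (SD 1.49 on the log2 scale) was larger than that of 95.9% of the 2582 mRNAs with a mean of at least 10 CPM. The fold change between ages was -0.74 on the log2 scale (SE 1.18, 95% interval -4.31 to 2.83, adjusted p = 0.816 in limma). Its direction turned without old 1 (0.54) and without young 2 (0.029), and it was -2.02 without old 2.

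PCK2 (ENSSSCG00000002009), the mitochondrial form, was measured at 110.1 and 104.4 CPM in the young and at 56.5 and 113.6 CPM in old 1 and old 2. Only old 1 was low, since the other 3 livers lay within a narrow range. Its log2 fold change was -0.41 (SE 0.40, 95% interval -1.64 to 0.82, adjusted p = 0.692 in limma), and 0.083 without old 1. PCK2 varied less within ages (SD 0.50, log2) than PCK1.

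Ratios of enzyme mRNAs were then taken within each library, where they depend little on how that library was scaled. The log2 ratio of PCK1 to PCK2 was -0.39 and 1.23 in young 1 and young 2 and -0.69 and 0.88 in old 1 and old 2. The ages overlapped in it, with a difference of -0.33 (SD within ages 1.13, exact two-sided permutation p = 0.667). The log2 ratio of PC to PDHA1, a subunit of the pyruvate dehydrogenase that sends pyruvate to acetyl-CoA instead, was 1.07 and 0.96 in the young and 0.57 and -0.71 in the old. Here the old livers were both lower, by 1.08 on average (SD within ages 0.64), and p = 0.333 in the exact two-sided permutation test is the smallest that 2 against 2 animals allow. Most of that difference came from old 2. PDHA1 itself stood between 26.1 and 29.4 CPM in all 4 livers. The log2 ratio of PCK1 to PKLR, the liver pyruvate kinase that runs the opposite way, was 3.35 and 5.31 in the young and 2.65 and 2.95 in the old. Both old values were below both young ones, with a difference of -1.53 (SD within ages 0.99, exact two-sided permutation p = 0.333). Most of it came from young 2, since young 1 (3.35) was close to old 2 (2.95). In old 1 the low ratio came with low PCK1, and in old 2 with PKLR at 26.3 CPM, against 7.33, 5.23 and 4.68 CPM in young 1, young 2 and old 1.

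**Figure D2:**
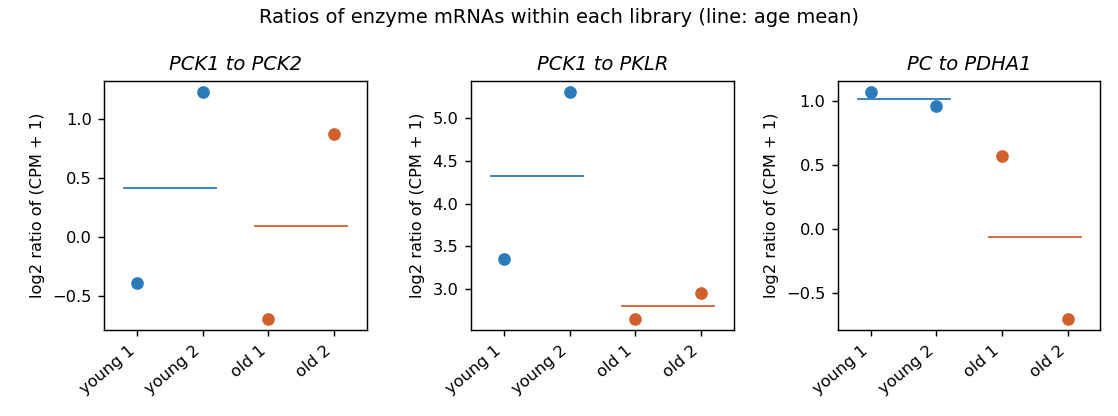
Log2 ratio of (CPM + 1) of a pair of enzyme mRNAs in each of the 4 libraries (vertical axes, log2 units); points are single livers and lines are age means. The ratio of PC to PDHA1 and that of PCK1 to PKLR are lower in both old livers, by 1.08 and 1.53 on average, while that of PCK1 to PCK2 overlaps between the ages. Most of the difference comes from old 2 for PC to PDHA1 and from young 2 for PCK1 to PKLR.

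TAT (ENSSSCG00000002736), which starts tyrosine breakdown and is a classic target of glucocorticoids, stood at 141.8 and 91.4 CPM in young 1 and young 2 and at 52.9 and 124.8 CPM in old 1 and old 2. Old 1 was lowest and old 2 lay between the young sows. The log2 fold change was -0.48 (SE 0.55, 95% interval -2.15 to 1.19, adjusted p = 0.735 in limma), and it turned to 0.13 without old 1. Among 10 measured genes of phenylalanine, tyrosine and tryptophan breakdown, TAT included, 3 had an unadjusted limma p under 0.05, all lower in the old, and the median log2 fold change was -0.62, or 0.061 without old 1. Those with such a p belong to tryptophan breakdown: TDO2, its entry enzyme, stood at 283.8 and 269.4 CPM in the young and 153.7 and 98.4 CPM in the old (log2 fold change -1.16, SE 0.27), and KYNU at 6.09, 5.93, 2.15 and 2.41 CPM. KMO, named here after its values were seen, was the third, at 37.4, 34.0, 11.1 and 15.02 CPM. On the tyrosine side, HPD, the step after TAT, was at 334.7, 277.8, 329.6 and 376.4 CPM and FAH, the last step, at 114.8, 85.8, 62.9 and 121.8 CPM. HGD stood at 157.0, 129.4, 32.0 and 117.5 CPM. In HGD, as in TAT, old 1 was the lowest library by a wide margin and old 2 was close to the young.

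PPARGC1A (ENSSSCG00000029275), the coactivator PGC-1 alpha, stood at 2.53 and 3.997 CPM in the young and at 1.66 and 3.10 CPM in the old. Its counting intervals were 2.21 to 2.87, 3.59 to 4.44, 1.35 to 2.01 and 2.71 to 3.54 CPM, so the 2 young sows differed beyond counting error, as did the 2 old. The log2 fold change was -0.35 (SE 0.33, 95% interval -1.36 to 0.66, adjusted p = 0.686 in limma). It came close to 0 without old 1 (-0.033) and without young 2 (-0.095). Its relative PPARGC1B had no read in either young library and 9 and 10 reads in the old, which made it at least 4.23-fold higher in the old when the young were set at 3 reads per library (0.0327 and 0.0347 CPM).

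FOXO1 (ENSSSCG00000009370), the insulin-restrained factor, stood at 0.60 and 1.84 CPM in young 1 and young 2 and at 0.96 and 1.46 CPM in old 1 and old 2. Both old livers lay between the young ones. With 55 to 159 reads per library its counting intervals were wide, and the log2 fold change of 0.044 (SE 0.36, 95% interval -1.06 to 1.15, adjusted p = 0.969 in limma) turned to -0.12 without old 2 and to -0.37 without young 1. FOXO3, a second factor of the same family, was at 2.74 and 1.07 CPM in the young and 3.77 and 5.28 CPM in the old, higher in both old livers (log2 fold change 0.97, SE 0.38, or 0.55 without young 2), and was not called.

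INSR (ENSSSCG00000013566), the insulin receptor, was measured at 4.26 and 7.98 CPM in the young and at 3.45 and 5.46 CPM in the old. Old 1 was below both young livers and old 2 between them. The log2 fold change was -0.36 (SE 0.38, 95% interval -1.53 to 0.81, adjusted p = 0.719 in limma), and it was 0.027 without young 2. Downstream of the receptor, IRS1, a docking protein, was higher in both old livers (0.92, 1.502, 2.34 and 4.07 CPM in the 4 livers, log2 fold change 0.91, SE 0.30), while AKT2, the kinase that acts on FOXO1, stood at 32.4, 40.3, 31.9 and 39.4 CPM. In CPM AKT2 ranked the livers as INSR did, by narrow margins, but not after TMM scaling. Its log2 fold change between ages was -0.028 (SE 0.20), which became 0.17 after TMM scaling.

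**Figure D3:**
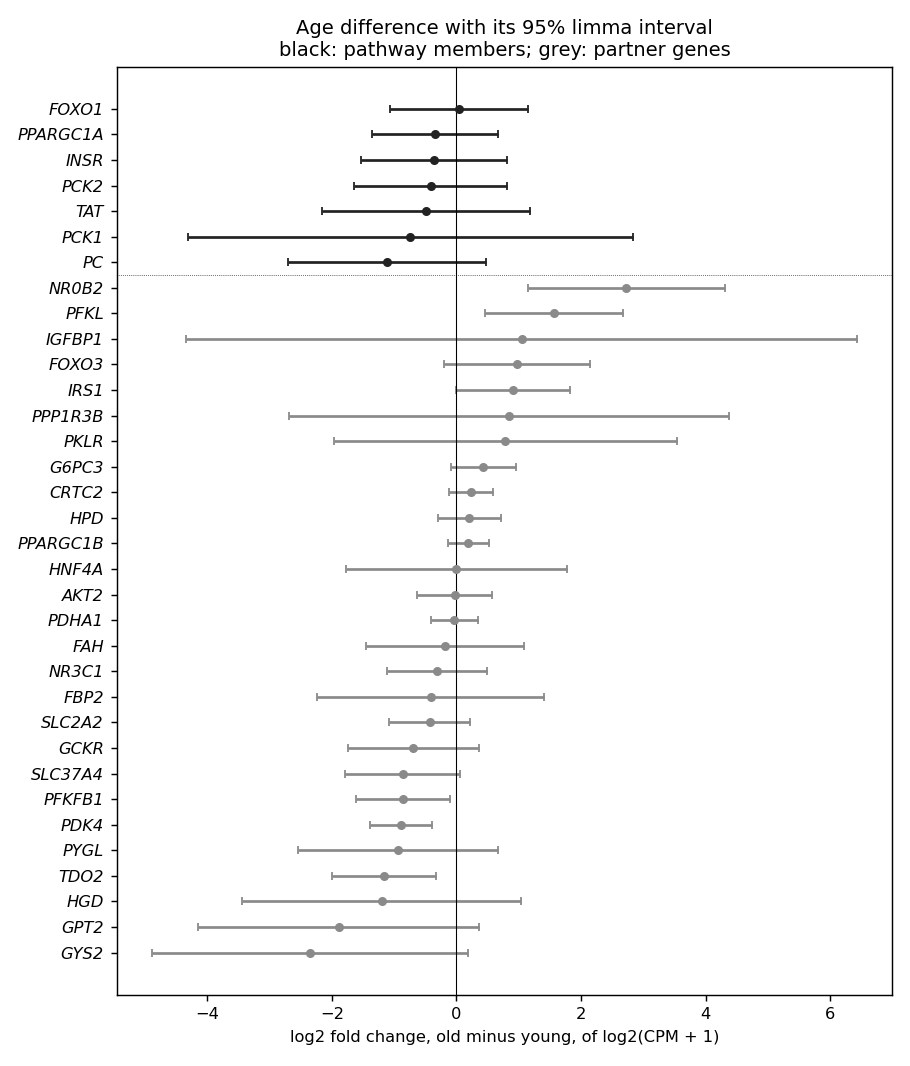
Log2 fold change of log2(CPM + 1), old minus young (horizontal axis), with its 95% limma interval for the 7 measured genes (black) and 27 partner genes chosen by role (grey). All 7 intervals of the pathway members cross 0, the widest being that of PCK1 (-4.31 to 2.83), and NR0B2, PFKL, TDO2, PDK4 and PFKFB1 are among the partners whose intervals lie on 1 side of it.

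PCK1, PPARGC1A and INSR ranked the 4 livers alike: old 1 lowest, then young 1, old 2 and young 2. Over all mRNAs tested, 3.29% had this order and 3.98% had its reverse. Among 169 tested genes of the members and the 9 pathway lists, PCK1 left out, 11 had the order (6.51%) and 9 the reverse (5.33%). The order cuts across age, since each age has 1 sow in the upper and 1 in the lower pair. PIK3R1, a regulatory subunit of the kinase below the insulin receptor, PPP1R3C, which targets a phosphatase to glycogen, and FKBP5, a glucocorticoid target, had the reverse order, and were named after their values were seen. They stood at 32.3, 10.178, 41.4 and 19.5 CPM for PIK3R1, at 51.1, 10.3, 55.4 and 17.0 CPM for PPP1R3C and at 5.11, 1.78, 10.7 and 2.16 CPM for FKBP5, in young 1, young 2, old 1 and old 2. FKBP5 had only 154 and 155 reads in young 2 and old 2. IGFBP1, a FOXO1 target that rises in fasting and is lowered by insulin, was at 2.18, 28.6, 5.70 and 59.1 CPM. It was high in the same livers as PCK1, young 2 and old 2, though their rank differed between these genes. Its fold change between ages (1.05 on the log2 scale, SE 1.77) had no stable direction, being -0.53 without old 2 and -0.56 without young 1.

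**Figure D4:**
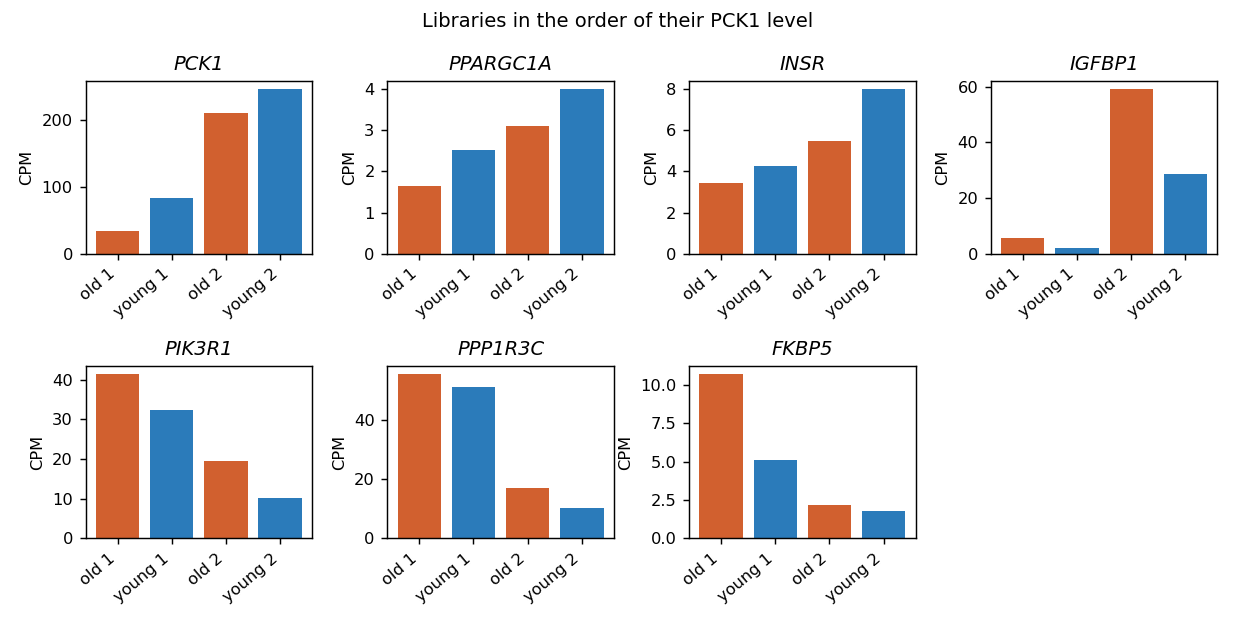
Level in CPM (vertical axes, from 0) of 7 genes, with the livers ordered along the horizontal axis from the lowest to the highest PCK1: old 1, young 1, old 2, young 2. PCK1, PPARGC1A and INSR climb from left to right, IGFBP1 is high in the right-hand pair, and PIK3R1, PPP1R3C and FKBP5 descend.

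By likeness of pattern, measured as the Euclidean distance of centred log2(CPM + 1) over the 4 libraries among 1466 mRNAs with a symbol and a mean of at least 10 CPM, FADS6 (distance 0.56), VNN1 (0.58) and SCD (0.66) were nearest to PCK1. SCD, the stearoyl-CoA desaturase, stood at 6.08, 16.0, 3.58 and 19.96 CPM. FADS6 was at 30.8, 60.7, 12.3 and 53.6 CPM and VNN1 at 15.2, 26.3, 3.71 and 25.7 CPM. Each had 1 high and 1 low liver per age, as PCK1 did. Nearest to TAT were TRAPPC9 (distance 0.12), GABARAPL1 (0.20) and GLS2 (0.23), the last being the liver glutaminase, at 34.4, 26.8, 15.2 and 34.6 CPM. These distances rest on 4 points.

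The other genes of gluconeogenesis and glucose release numbered 15 tested of 24 listed. Over all mRNAs, 25% were lower and 24.4% higher without overlap, and 8.93% were lower and 6.78% higher at an unadjusted limma p under 0.05. Of these 15, 3 had such a p, all lower in the old, 7 were lower and 2 higher without overlap, and their median log2 fold change was -0.41. Without old 1 it was -0.48, while that of the members was 0.083. Both transporters at the glucose end of the path were lower in both old livers in CPM, though SLC2A2 overlapped between the ages after TMM scaling. The log2 fold change of SLC2A2 was -0.23 in edgeR's exact test and -0.25 in DESeq2. SLC37A4, which carries glucose 6-phosphate into the endoplasmic reticulum for the phosphatase, stood at 145.8 and 121.1 CPM in the young and 57.4 and 92.4 CPM in the old (log2 fold change -0.86, SE 0.30, or -0.52 without old 1), and SLC2A2, the glucose transporter of the hepatocyte membrane, at 76.9, 62.2, 58.1 and 45.0 CPM (-0.43, SE 0.21, or -0.25 without old 2 and -0.28 without young 1). G6PC3, the phosphatase found in most tissues, was higher in both old livers, at 2.81, 2.10, 3.93 and 3.37 CPM. G6PC2, the islet form, was listed at 0 in every library. At the substrate end, GPT2, an alanine aminotransferase, was at 153.7 and 90.2 CPM in the young and 16.8 and 57.1 CPM in the old (log2 fold change -1.89, SE 0.74, or -1.03 without old 1). LDHA, a lactate dehydrogenase subunit, had the smallest unadjusted limma p of this list (0.00198), at 16.4, 15.6, 7.54 and 7.20 CPM. FBP2, the muscle form of the phosphatase, was low and overlapping, at 0.98, 3.52, 0.63 and 2.09 CPM.

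Among 32 glycolysis and pyruvate genes tested, 4 were lower and 2 higher at an unadjusted limma p under 0.05, and the median log2 fold change was -0.090. The higher ones were the phosphofructokinase subunits PFKL, at 1.62 and 0.42 CPM in the young and 4.65 and 4.82 CPM in the old (log2 fold change 1.57, SE 0.36), and PFKP, at 0.065, 0.092, 3.12 and 2.21 CPM. PFKFB1, which sets the level of the regulator fructose 2,6-bisphosphate in liver, was lower, at 1.97, 1.005, 0.36 and 0.33 CPM. PDK4, the kinase that shuts pyruvate dehydrogenase in fasting, was also lower, at 24.8 and 22.6 CPM in the young and 13.7 and 11.0 CPM in the old (log2 fold change -0.89, SE 0.16). GCKR, a regulatory protein of liver glucose use, stood at 41.0, 58.5, 23.5 and 38.1 CPM, lower in both old livers. After TMM scaling the ages overlapped for GCKR, with old 2 above young 1.

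Of 19 glycogen genes tested, 3 were lower and 1 higher at an unadjusted limma p under 0.05. Without overlap 8 were lower and 2 higher, beside 25% and 24.4% of all mRNAs. UGP2, which makes UDP-glucose for glycogen synthesis, stood at 45.1 and 62.5 CPM in the young and 8.56 and 9.30 CPM in the old (log2 fold change -2.45, SE 0.21), with the smallest unadjusted limma p of any gene on the pathway lists (0.000965). GYS2, the liver glycogen synthase, was at 47.3 and 56.3 CPM in the young and 3.98 and 20.4 CPM in the old (-2.35, SE 0.83), and PYGL, the liver phosphorylase, at 48.0, 45.5, 14.8 and 38.4 CPM (-0.94, SE 0.53). In both, the lower value came from old 1, without which the log2 fold changes were -1.30 for GYS2 and -0.28 for PYGL. PPP1R3B, a glycogen-targeting subunit, was at 29.8 CPM in young 1 but 3.02 CPM in young 2, against 21.2 and 17.1 CPM in the old.

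Insulin and glucagon signalling genes split evenly, with 3 lower and 3 higher at an unadjusted limma p under 0.05 among 24 tested and a median log2 fold change of 0.037. PDE4B, a phosphodiesterase that breaks down cyclic AMP, led them by p and was higher in both old livers, at 1.23, 1.005, 3.28 and 2.63 CPM. Of 35 transcription factors and cofactors tested, 2 were lower and 3 higher at that p. Without overlap 13 were higher and 4 lower, beside 24.4% and 25% of all mRNAs. NR0B2, the repressor SHP, stood at 9.92 and 4.56 CPM in the young and 68.7 and 37.3 CPM in the old (log2 fold change 2.73, SE 0.52). XBP1 was lower, at 111.5, 93.1, 53.6 and 57.5 CPM. CRTC2, the CREB coactivator, was at 0.63, 0.74, 0.94 and 1.02 CPM, the glucocorticoid receptor NR3C1 at 9.24, 11.5, 10.01 and 6.54 CPM and HNF4A at 59.0, 22.1, 43.0 and 30.4 CPM. The ages overlapped for NR3C1 and HNF4A.

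Targets of FOXO1 and of glucocorticoids did not share a direction. Among 12 tested, 3 were lower and 3 higher at an unadjusted limma p under 0.05, and the median log2 fold change was 0.76, or 0.37 without old 2 and 0.51 to 0.55 without any other library. DUSP1, a phosphatase of stress kinases, was at 10.245 and 6.37 CPM in the young and 65.2 and 56.6 CPM in the old (log2 fold change 2.76, SE 0.27), while PDK4 and TDO2, on the same list, were lower. UGP2, NR0B2, PFKP and DUSP1 were called in both edgeR's exact test (adjusted p = 0.00218, 0.00226, 5.63e-06 and 4.64e-05) and DESeq2, but in neither limma nor edgeR's quasi-likelihood test. PPP1R3D and PER1 were the other pathway genes called by edgeR's exact test, and DESeq2 called these 6 with CYP1A2, HK3, GRB14 and KMO. HK3 was far higher in old 1 than in any other library, at 0.72, 1.07, 14.9 and 1.74 CPM in young 1, young 2, old 1 and old 2. PPP1R3D had no read in either young library and only 28 and 19 reads in the old.

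**Figure D5:**
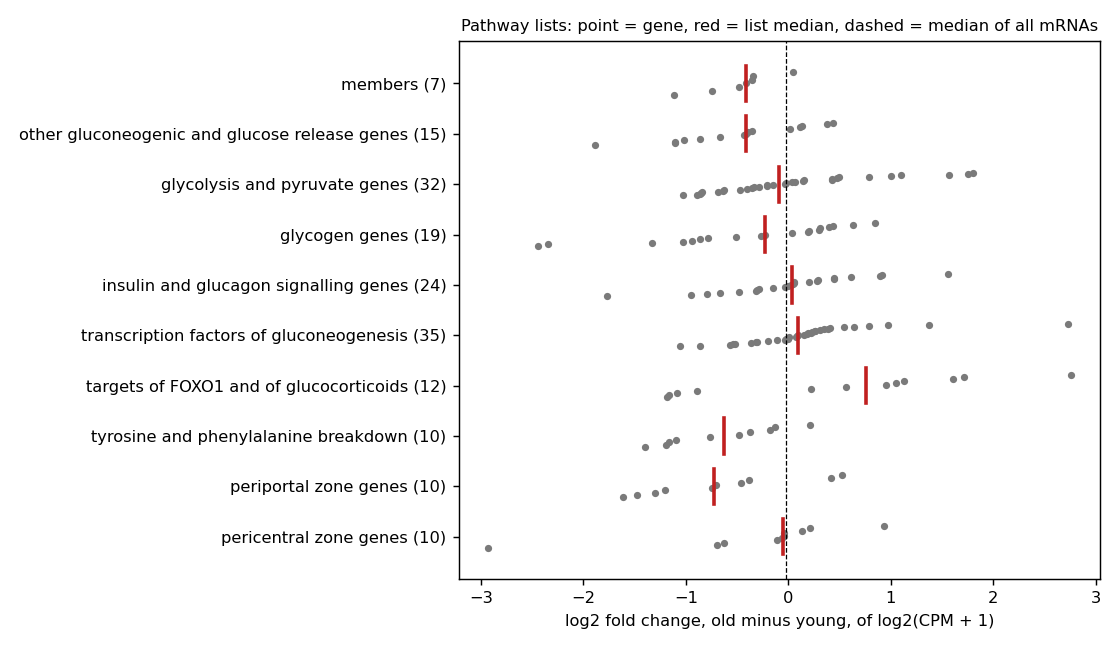
Log2 fold change of log2(CPM + 1), old minus young (horizontal axis), of each gene tested in the members' list and 9 pathway lists (rows, number tested in brackets), with list medians in red and the median of all mRNAs dashed. The medians run from -0.72 for periportal genes to 0.76 for targets of FOXO1 and of glucocorticoids, beside -0.023 for all mRNAs.

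Gluconeogenesis is strongest in the periportal hepatocytes, so genes of both liver zones were set beside the members. Of 10 periportal genes tested, PCK1 included, 5 were lower and 0 higher without overlap, beside 25% and 24.4% of all mRNAs. Of these genes 0 had an unadjusted limma p under 0.05, and the median log2 fold change was -0.72, or -0.31 without old 1. Their summed level was 2447 and 1906 CPM in the young and 581 and 1412 CPM in the old. ASS1 alone held 1498, 1064, 243 and 694 CPM of these sums in young 1, young 2, old 1 and old 2. AGXT, an aminotransferase of this zone, led them by p, at 156.8, 74.7, 47.4 and 45.4 CPM. Of 10 pericentral genes, 2 were lower and 2 higher without overlap, with a median of -0.051 and a single gene under that p, CYP1A2, at 339.0, 553.9, 27.7 and 112.4 CPM. The summed level of the pericentral genes was also lower in both old livers, at 1984 and 2812 CPM in the young and 959 and 1799 CPM in the old. CYP2E1 alone held 1503.5, 2028, 850.4 and 1364.8 CPM of it.

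Markers of other cell types differed between the ages in part. Summed levels were higher in both old livers for macrophages (266 and 309 CPM in the young, 494 and 387 in the old, 4 of 7 markers higher without overlap), cholangiocytes (21.95 and 26.8, 76.3 and 69.9 CPM, 4 of 7) and T and NK cells (10.4 and 12.9, 22.4 and 16.1 CPM, 5 of 8). Over all mRNAs, 24.4% were higher without overlap. CLDN4 alone held 65.7 and 50.5 CPM of the cholangiocyte sums in old 1 and old 2. The median log2(CPM + 1) of cholangiocyte markers was 0.37 and 0.14 in the young and 0.26 and 0.50 in old 1 and old 2. For macrophages it was 4.32, 4.61, 5.66 and 3.55, and for T and NK cells 1.14, 1.33, 1.47 and 1.62. Hepatocyte markers summed to 55818 and 62792 CPM in the young and 39627 and 48701 CPM in the old. After TMM scaling the sum of old 2 lay between those of the young. ALB alone made up 41.7% to 56.1% of these sums, 3 of 12 markers were lower without overlap, the 25% found over all mRNAs, and 4 of 12 had a higher old mean. Endothelial markers (46.1, 42.2, 71.8 and 49.3 CPM, 1 of 6 higher and 1 of 6 lower), stellate cell and fibroblast markers (27.5, 47.6, 29.5 and 69.3 CPM, 1 of 10 higher), B and plasma cell markers (2.56, 4.51, 12.4 and 2.42 CPM, 1 of 4 lower) and erythroid markers (622, 429, 308 and 407 CPM, 2 of 5 in each direction) were mixed. By the same rule as for the pathways, the leading markers were APOB (213.2, 184.7, 118.8 and 149.6 CPM), CD68 (18.9, 15.9, 28.9 and 27.4), PECAM1 (10.5, 8.92, 23.8 and 13.8), TAGLN (2.49, 3.78, 9.80 and 13.7), CLDN4 (12.4, 15.007, 65.7 and 50.5), CD8A (0.53, 0.81, 1.61 and 1.67) and HBM (0.80, 0, 1.71 and 2.16), and ZBP1 led the interferon list (1.88, 1.51, 79.7 and 5.51). In whole liver, fewer cells of a type and less RNA per cell cannot be told apart, and the part of cell makeup in the PC values was not tested.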

How the data were processed

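Total RNA from the livers of 2 young and 2 old sows was depleted of ribosomal RNA and sequenced as directional libraries. Reads were processed by the authors with TopHat2 2.0.14, StringTie 1.2.3 and Salmon 0.6.0 (submitters' processing notes) against Sscrofa10.2. The deposited mRNA values, which the authors made by scaling Salmon estimates to the library and named TPM, were used as CPM. They were so used because 100% of them were whole multiples (tolerance 0.1 read) of 1 step per library, the same for all genes, and the whole reads were recovered from them. The number of reads implied by the step was 91846047, 86556812, 61539352 and 71832293 in young 1, young 2, old 1 and old 2. The lncRNA, circRNA and miRNA tables were not used here.

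Symbols came from an Ensembl gene table. No genome or annotation of Sscrofa10.2 was used, so no coordinates or sequences are given. The main test was limma 3.58.1 on log2(CPM + 1), without trend, over the 16898 mRNAs above 0 in at least 2 of 4 libraries. The study's own design, the exact test of edgeR 4.0.16, its quasi-likelihood test and DESeq2 1.42.0 were run on the recovered reads as alternatives, with TMM scaling, pseudocounts of 0.1 and 0.01, other filters, an intensity trend, a replicate block and each library left out. Counting intervals are exact Poisson at 95% and cover counting error only, and p-values measure the spread between single animals, 2 per age. Fold changes on this scale understate differences of low genes.

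The members and gene lists were chosen with earlier results of these data known. Named genes were the members, the 29 of 36 partners chosen by role that had an identifier, of which 2 are not reported here, the gene of each list with the smallest p among those with a mean of at least 1 CPM and no overlap between ages, and the 3 mRNAs nearest in pattern to PCK1 and to TAT. Exceptions are marked as named after their values were seen, or named because edgeR's exact test or DESeq2 called them.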

Additional observations from a re-analysis of the deposited data

How the results depend on the processing

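No member was called under any of the 14 alternatives. The number of mRNAs called was 0 in limma, 534 in edgeR's exact test (457 higher, 77 lower), 0 in its quasi-likelihood test, 880 in DESeq2 (683 higher, 197 lower) and 2 with a mean of at least 1 CPM, where fewer genes were tested. The causes of the other differences were not tested. At an unadjusted p under 0.05 limma had 2654 mRNAs and the quasi-likelihood test 2474. edgeR and DESeq2 moved the median of all mRNAs by 0.14 and 0.12 on the log2 scale. Relative to that median the members' median was -0.37 and -0.38, against -0.39 in limma and -0.25 in limma after TMM scaling. In each of these fits 6 of 7 members were below it.

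With 1 library left out at a time, the lone sample of its age is assumed to vary like the other age. Members without overlap then numbered 2 to 6 of 7 (28.6% to 85.7%), where 70.2% to 77.9% of all mRNAs had none, against 1 of 7 with all 4 libraries, where 49.3% of all mRNAs had none. The log2 fold change ranged from -2.02 to 0.54 for PCK1, from -0.91 to 0.083 for PCK2, from -1.09 to 0.13 for TAT, from -0.37 to 0.46 for FOXO1 and from -0.75 to 0.027 for INSR. Of the partner genes, it ranged from -1.01 to 0.18 for FBP2, -0.34 to 1.92 for PKLR, -0.11 to 0.052 for PDHA1, -0.62 to 2.32 for PPP1R3B, -0.18 to 0.13 for AKT2, -0.69 to 0.69 for HNF4A, -0.56 to 2.66 for IGFBP1 and -0.65 to 0.29 for FAH. Of the genes near in pattern, it ranged from -1.74 to 0.30 for FADS6, -2.16 to 0.35 for VNN1, -1.26 to 0.93 for SCD, -1.09 to 0.13 for TRAPPC9 and -0.95 to 0.18 for GLS2. Without old 1 only PC, and without old 2 only PCK2, of the 7 members had an unadjusted limma p under 0.05. PC (-1.75 to -0.47) and PPARGC1A (-0.66 to -0.033) kept their direction in all 14 alternatives, PPARGC1A coming close to 0. List medians near 0 turned as well: that of insulin and glucagon signalling was -0.031 without old 2 and -0.052 without young 2, and that of pericentral genes 0.037 without young 1.

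Near 0, a change of scaling, test or pseudocount also turned some directions. edgeR and DESeq2 differ from the main fit in more than scaling. In DESeq2, after TMM scaling, in edgeR's exact test and in its quasi-likelihood test, the log2 fold change was 0.14, 0.16, 0.17 and 0.17 for PDHA1, 0.14, 0.17, 0.17 and 0.17 for AKT2, 0.054, 0.19, 0.073 and 0.073 for HNF4A, 0.064, 0.020, 0.085 and 0.085 for FAH, and 0.25, 0.011, 0.28 and 0.28 for SCD. HNF4A was 0.0037 and 0.0033 with pseudocounts of 0.01 and 0.1.

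Same-numbered young and old sows were different animals, and their deviations from the age means correlated at 0.090 over 16898 mRNAs, with only 2 pairs. With the replicate number as a block 0 mRNAs were called, the members' median stayed at -0.41, and 2425 mRNAs had an unadjusted limma p under 0.05.

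With 2 animals per age, the 95% intervals reached 1.01 to 1.67 log2 units to either side of the value in 6 members and 3.58 in PCK1.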
